A study of Enchytraeus albidus with 21 samples.

Results

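The transfer of white potworms (Enchytraeus albidus) out of their culture and into standard test soil was examined on 6 arrays, which are 3 of worms kept for 2 days in control soil and 3 of worms taken from the culture at day 0. The 6 arrays were chosen by their titles from the 21 arrays of the series, and all belong to experiment 1. Each replicate was a group of 10 adults with a developed clitellum, the swollen band of skin that forms the cocoon. Soil worms lived in separate vessels with 25 g of moist, unspiked soil at 20 °C under 16 h of light and 8 h of darkness. Culture worms were collected without any time in a test vessel, also as 3 biological replicates. RNA came from whole bodies, 0.5 µg of it was labelled with Cy3, and each sample was hybridised alone to a custom Agilent array. The other arrays are 3 of worms kept for 2 days in soil spiked with acetone, a solvent used to carry poorly soluble chemicals, and 12 of a second experiment with 2, 4 or 8 days in control soil. The acetone arrays shared the limma fit of 9 arrays and the choice of probes to test. The arrays of experiment 2 gave levels of named probes, and entered the likeness between probes, the counts over all soil samples and 1 alternative fit.

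Enchytraeids are small segmented worms, relatives of the earthworms, that feed on decaying plant matter and its microbes. In soil toxicity tests they are moved out of a maintenance culture into a defined soil, so every control animal has also been through a change of surroundings. The comparison of control soil with culture asks how transcript levels differ after that move. The groups also differ in day of sampling, which cannot be told apart from the move. Because whole animals were extracted, a lower signal from fewer cells of a type and one from less RNA per cell cannot be told apart.

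The array carries 1035 worm probes, each printed on 14 or 15 spots. The files give a probe's identifier in place of a gene name, so probes are named by identifier, no function is attached to them, and no tissue marker could be checked. A level is the mean log2 processed signal of a probe's spots minus the 75th percentile of the array, so a level of 0 lies at that percentile, and a difference of 1 is a 2-fold change. A probe counted as detected on an array when at least a share of 0.5 of its usable spots was well above background. The median spread between spots of a probe (SD on the log2 scale) was 0.0743 to 0.0919 on the control soil arrays and 0.0830 to 0.102 on the culture arrays.

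Detection set 1 of the 6 arrays apart. The control soil arrays detected 886, 910 and 886 probes (replicates 1, 2 and 3), and the culture arrays detected 869, 974 and 599. Culture replicate 3 was the dimmest array, with a 75th percentile signal of 1552.5 against 2130 to 2580 in control soil and 2460 and 3420 in the other culture replicates. Its dim end was also raised. The 59 probes detected on none of the 6 arrays had a median level of -9.92, -10.17 and -9.77 on the control soil arrays and -9.31, -9.57 and -6.95 on the culture arrays. The lowest probe level was -7.07 on culture replicate 3 and -9.40 or below on the other 5 arrays, so its dim probes span a shorter range.

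**Figure D1:**
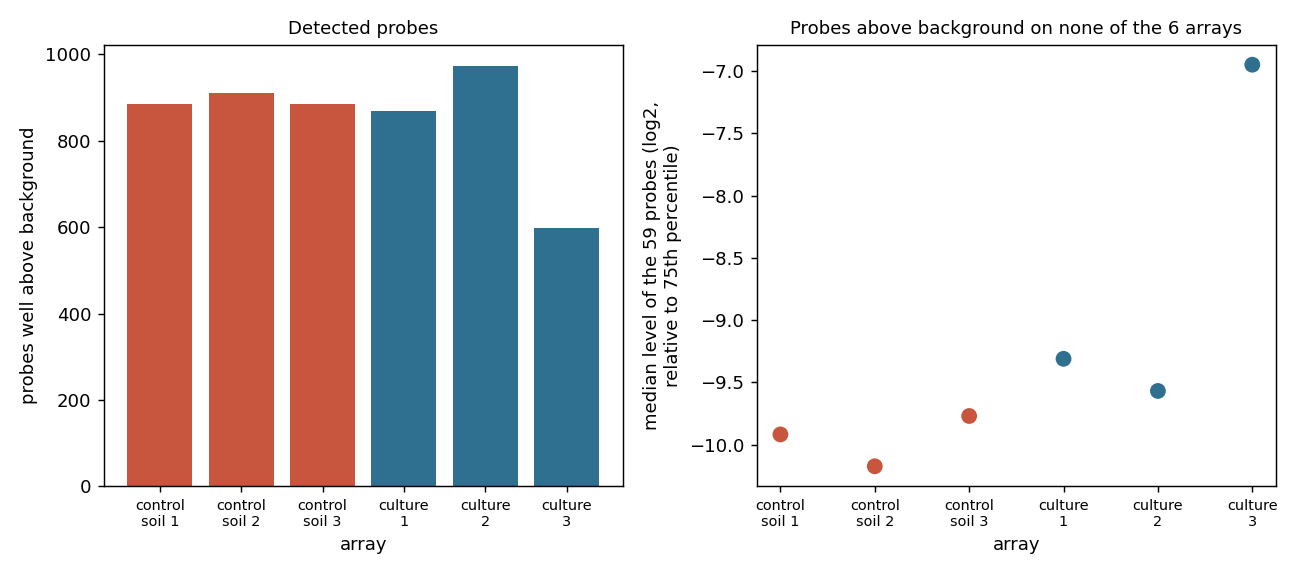
Left, bars give the number of probes well above background on each of the 3 control soil arrays (886, 910, 886) and 3 culture arrays (869, 974, 599). Right, points give the median log2 level, relative to the array's 75th percentile, of the 59 probes detected on none of these arrays, where culture replicate 3 lies at -6.95 and the others at -9.31 or below.

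No probe was detected on all 3 arrays of one group and on none of the other. On all 6 arrays 595 probes were detected, a further 258 were missed on culture replicate 3 alone, and 58 were detected on culture replicate 2 alone. Another 22 probes were detected on all 3 control soil arrays and on 1 culture array. A probe was tested when it was detected on every array of at least 1 of the 3 groups of experiment 1, which left 883 probes and set 152 aside. Scan day and slide followed the groups. The 3 control soil arrays were scanned on a day of their own and lay on 2 slides, and no scan day or slide held both control soil and culture, so those factors and the move to soil cannot be told apart.

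Control soil replicate 1 also stood apart, in a small set of probes. On this array 16 tested probes lay over 2-fold above both other control soil replicates, and 10 of them lay over 4-fold above both. The same counts were 17 and 2 for control soil replicate 2, 4 and 1 for replicate 3, and at most 10 and 2 for a culture replicate. Contig119, chosen after its values were seen, is one of them. Its level was 1.90, -3.04 and -4.18 in control soil, 4.38, 4.20 and 4.15 in acetone soil, and -2.76, -2.21 and -2.80 in culture. Control soil replicate 1 thus lay between the acetone arrays and all the others, while control soil replicates 2 and 3 lay below the culture arrays.

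The spot SD of Contig119 was 0.0391 on control soil replicate 1, where no spot was saturated. On acetone replicate 3 all its spots were saturated, so the level of 4.15 there is a lower bound. Contig8 also had control soil replicate 1 between the acetone arrays and all the others, at 0.01, -4.73 and -5.60 in control soil, 2.93, 2.96 and 2.79 in acetone soil, and -4.99, -4.29 and -5.29 in culture. Ealb_Met_P7_C1_SP6_2090602 was close to Contig8, at 0.03, -4.73 and -5.85 in control soil, 2.72, 2.75 and 2.82 in acetone soil, and -4.99, -4.50 and -5.04 in culture. For both, control soil replicate 2 lay within the culture range and replicate 3 below it. Of the 16 probes, 13 had all 3 acetone arrays above control soil replicates 2 and 3, and 12 had them above replicate 1 as well. The corresponding count was 6 of the 17 probes raised on control soil replicate 2. Of the 12, Ealb_Met_P7_G8_T7_2175288, Ealb_Met_P7_C5_SP6_2090632 and Contig143 were tested only because all 3 acetone arrays detected them. For these the filter favoured high acetone levels. Contig143 was detected on no control soil array. Ealb_Pest_P7_C2_SP6_2092135 and Ealb_Pest_P6_H1_SP6_2092020, both of the 16, had near-equal levels on all 9 arrays. Whether such probes read separate transcripts was not tested.

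Over all 883 probes, control soil replicate 1 correlated with the acetone arrays at 0.972 to 0.982 and with both other control soil arrays at 0.978, while control soil replicates 2 and 3 correlated at 0.985 (Pearson, across probes, which are not independent). Control soil replicates 2 and 3 correlated with the acetone arrays at 0.946 to 0.962. The extreme values of the 16 probes enter these correlations. After removal of a pair's median offset, replicate 1 had median absolute differences of 0.297, 0.580 and 0.372 from the acetone arrays. Those were 0.273, 0.481 and 0.349 for replicate 2 and 0.271, 0.509 and 0.371 for replicate 3. By this measure replicate 1 was not the nearest. None of the 16 probes had control soil and culture values that did not overlap, against 288 of all 883 (32.6%). They account for 13 of the 33 probes whose SD within control soil exceeded 1. The 16 were picked for 1 control soil array far above the others. That choice favours overlap and a large SD, so neither count is a result about these probes. For Contig119 the difference between control soil and culture was 0.82 with a standard error of 1.23 (limma, adjusted p = 0.768).

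**Figure D2:**
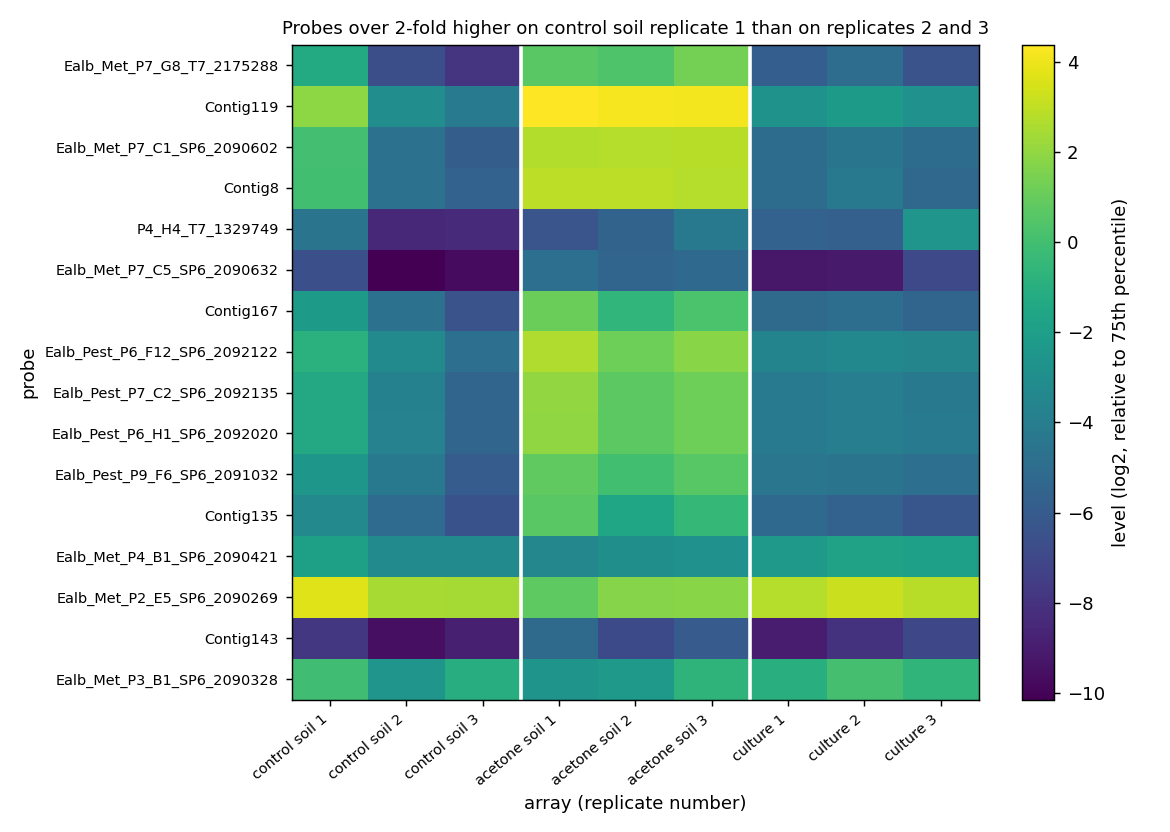
Log2 levels, relative to the array's 75th percentile, of the 16 probes that lay over 2-fold above both other control soil arrays on control soil replicate 1, for the control soil, acetone soil and culture arrays of experiment 1. For 12 of the 16 probes all 3 acetone arrays lay above control soil replicate 1 as well as above replicates 2 and 3. Some of the 12 were tested only because all 3 acetone arrays detected them.

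After 2 days in control soil, 1 probe was past the test threshold. P5_D7_T7_1329838 had levels of 2.32, 2.41 and 2.13 in control soil and 0.95, 1.15 and 0.83 in culture. All 3 soil arrays lay above all 3 culture arrays, with a gap of 0.97 between the lowest soil and the highest culture value. The means were 2.29 ± 0.14 in control soil and 0.98 ± 0.16 in culture (SD, n = 3 each), so the signal rose 2.47-fold, with a 95% interval of 1.86-fold to 3.28-fold. On the log2 scale the difference was 1.31 with a standard error of 0.18, and the adjusted p was 0.0341 (limma across 883 probes). It was the only probe called, which is 0.113% of those tested. That fit took in the acetone arrays, and a fit of the 6 arrays alone called 8 probes, all higher in soil. The difference stayed between 1.07 and 1.39 under every alternative run, but leaving out any 1 of the 6 arrays ended the call, with a smallest adjusted p of 0.0938 to 0.288 over the 6 repeats. Quantile normalization, median centring, the authors' own values, spot medians, the replicate block and a joint fit of all groups also ended it.

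P4_C2_SP6_1371456 came next by p among the higher probes. It had levels of 3.53, 3.55 and 3.38 in control soil and 2.37, 2.59 and 2.60 in culture. Each soil array was above each culture array, and the 2 sets of replicates were about equally tight. Means were 3.49 ± 0.09 in control soil and 2.52 ± 0.13 in culture (SD, n = 3 each). The difference of 0.97 (standard error 0.17, 95% interval 0.58 to 1.35, or 1.96-fold) missed the threshold at an adjusted p of 0.109 (limma), and at 0.0367 it passed when only the 595 probes detected on all 6 arrays were tested. That stricter filter called 3 probes, all of them higher in soil. The third was Ealb_Met_P1_H3_T7_2175207, named after its values were seen, with -2.75, -2.18 and -2.44 in control soil against -3.58, -3.46 and -3.50 in culture, and an adjusted p of 0.0436 there and 0.109 among all 883 (limma).

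P3_A9_SP6_1371430 was the leading probe in the other direction. Its levels were -0.90, -0.69 and -0.66 in control soil and 0.71, 0.02 and 0.59 in culture. Every soil array lay below every culture array, and culture replicate 2 was the nearest to them. The means were -0.75 ± 0.13 in control soil and 0.44 ± 0.37 in culture (SD, n = 3 each). The difference was -1.19 (standard error 0.26, 95% interval -1.77 to -0.61), or 2.28-fold more signal in culture, and it did not pass (limma, adjusted p = 0.109).

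Ealb_Pest_P1_A4_SP6_2090839 was the other leading probe with less signal in soil. It had -6.35, -6.20 and -6.28 in control soil against -4.81, -5.13 and -5.66 in culture, where replicate 3 was not well above background. The soil replicates were nearly equal and lay below all the culture values. The difference of -1.08 (standard error 0.24, 95% interval -1.62 to -0.54) did not pass either (limma, adjusted p = 0.109). With normexp background correction it shrank to -0.56 (limma, adjusted p = 0.266).

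**Figure D3:**
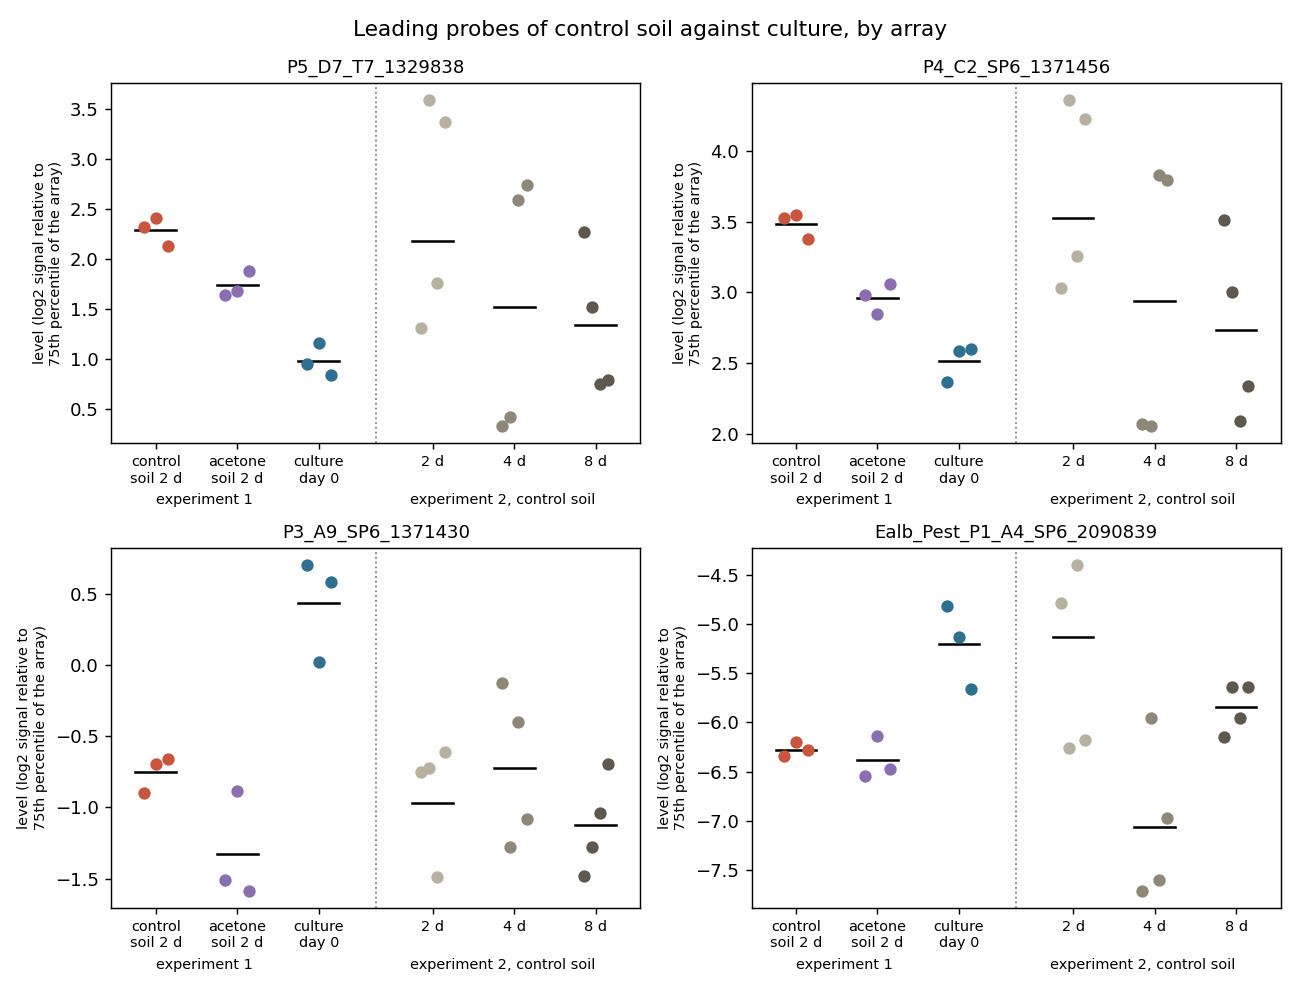
Log2 level, relative to the array's 75th percentile, of the 4 leading probes by p value, 2 in each direction, by array (points) with group means (lines), in experiment 1 (control soil, acetone soil, culture) and experiment 2 (2, 4 and 8 days in control soil). P5_D7_T7_1329838 averages 2.29 in control soil and 0.98 in culture, and all culture arrays of P3_A9_SP6_1371430 lie above all soil arrays of both experiments.

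The acetone arrays also show worms that had left the culture 2 days earlier, and they share the culture arrays as their comparison. P5_D7_T7_1329838 had 1.64, 1.68 and 1.88 in acetone soil, which lies between control soil and culture with no overlap on either side. P4_C2_SP6_1371456 likewise lay between them, with 2.98, 2.85 and 3.06 in acetone soil. P3_A9_SP6_1371430 had -1.51, -0.88 and -1.59 in acetone soil, below all culture arrays and overlapping control soil. Ealb_Pest_P1_A4_SP6_2090839 had -6.55, -6.13 and -6.47 in acetone soil, around the control soil values.

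Experiment 2 has soil arrays alone and no culture array, so its levels can be set beside the culture of experiment 1 only as values from another experiment. Its 2-day replicates 2 and 4 were nearly identical and were counted as 1 sample, which leaves 11 samples. P5_D7_T7_1329838 averaged 2.18 (range 1.31 to 3.48) at 2 days, 1.52 (0.32 to 2.74) at 4 days and 1.33 (0.75 to 2.27) at 8 days. The 3 times overlapped widely, and 7 of the 11 samples lay above all culture arrays of experiment 1 while 4 lay below all of them. At 2 days every sample of the second experiment lay above the highest culture value of 1.15. Those below all culture arrays were from 4 and 8 days.

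The same count was 7 above and 4 below for P4_C2_SP6_1371456, which averaged 3.53 (3.03 to 4.29) at 2 days, 2.94 (2.06 to 3.83) at 4 days and 2.74 (2.10 to 3.51) at 8 days. Again every 2-day sample lay above the highest culture value, here 2.60, and those below culture were from 4 and 8 days. The pair moved together over the series. The Pearson correlation of P4_C2_SP6_1371456 with P5_D7_T7_1329838 was 0.980 over the 20 samples, the highest of 882 probes. Contig155 at 0.835 and Ealb_Met_P3_D4_T7_2175232 at 0.813 followed. The samples share groups and experiments, so these values describe likeness only.

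Of these followers, 1 separated soil and culture and 1 did not. Contig155 had 3.99, 3.29 and 3.64 in control soil and 3.39, 3.90 and 3.08 in culture, with overlapping groups and a difference of 0.18 (limma, adjusted p = 0.758). Ealb_Met_P3_D4_T7_2175232 had 3.88, 3.95 and 3.75 in control soil and 3.17, 3.48 and 3.54 in culture. Its groups did not overlap, and the difference was 0.46 (limma, adjusted p = 0.240).

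P3_A9_SP6_1371430 behaved differently in experiment 2, where it averaged -0.97 (-1.49 to -0.67) at 2 days, -0.72 (-1.28 to -0.12) at 4 days and -1.12 (-1.48 to -0.69) at 8 days. All 17 soil samples of the series, 6 in experiment 1 and 11 in experiment 2, lay below the lowest culture array. Over all tested probes, 6 had every soil sample below all 3 culture arrays (0.680%) and 7 had every soil sample above them (0.793%). P5_D7_T7_1329838 and Ealb_Pest_P1_A4_SP6_2090839 were in neither set. In experiment 2 Ealb_Pest_P1_A4_SP6_2090839 averaged -5.13 (-6.22 to -4.39) at 2 days, -7.06 at 4 days and -5.84 at 8 days. It was not detected there on replicates 1 and 3 at 4 days or replicate 3 at 8 days, which all lay below the culture arrays. Its culture mean in experiment 1 was -5.20. Of its 11 samples in experiment 2, 7 lay below all culture arrays and 2, both from 2 days, lay above all of them.

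Among the 7 was P5_F4_T7_1329818, named after its values were seen. Its levels were -3.02, -3.16 and -2.99 in control soil and -3.95, -4.06 and -4.12 in culture, a difference of 0.99 with a standard error of 0.21 (limma, adjusted p = 0.109). Both sets were tight and well apart. In experiment 2 it averaged -0.91 at 2 days, -1.89 at 4 days and -1.92 at 8 days, farther above the culture than the soil arrays of experiment 1 were. Among the 6 was Ealb_Met_P6_H9_SP6_2090577, also named after its values were seen, at 1.63, 1.67 and 1.36 in control soil and 2.55, 2.24 and 2.45 in culture. Its difference was -0.86 with a standard error of 0.22 (limma, adjusted p = 0.119), and it averaged 1.90, -0.33 and 1.37 at 2, 4 and 8 days of experiment 2. The other members of the 7 were Contig14, Contig19, Ealb_Met_P10_C4_SP6_2090804, Ealb_Met_P6_B12_T7_2175285, Ealb_Met_P7_D1_SP6_2090603 and Ealb_Pest_P2_D9_T7_2175109. Those of the 6 were Ealb_Met_P5_H2_T7_2175266, P1_D11_SP6_1371393, P3_D10_T7_1329721 and P5_H9_T7_1329858.

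Across the tested probes, differences were mostly small and leaned toward control soil. The median difference was 0.12, the middle 50% of probes lay between -0.16 and 0.46, and the 5% and 95% points were -0.55 and 1.05. A difference over 2-fold either way was seen for 60 probes (6.8%), of which 50 had more signal in soil (5.66%) and 10 had less (1.13%). Of the 50 and the 10, 36 and 6 had groups that did not overlap. Without adjustment, 125 probes with more signal in soil (14.2%) and 29 with less (3.28%) had a p under 0.05 in the limma fit. Together these are 154 probes, or 17.4%. Control soil and culture did not overlap for 288 probes (32.6%), 202 with more signal in soil (22.9%) and 86 with less (9.74%).

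That lean depended on the scaling and on the filter on dim probes. Relative to the median probe, 36 probes were over 2-fold higher in soil and 14 lower. With quantile normalization the probes without overlap were 132 higher and 146 lower, with median centring 108 and 171, with the authors' values 115 and 137, and with normexp correction 165 and 89. With no filter and the scaling unchanged, 202 of 1035 probes were higher without overlap and 174 lower, and 120 higher and 110 lower had an unadjusted limma p under 0.05. The median difference was 0.05 with no filter, 0.01 with quantile normalization, -0.10 with median centring, 0.02 in the authors' values and 0.05 with normexp correction. No overall direction can therefore be given for the move to soil, and single differences are best read against a median of 0.12.

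The design bounds most probes. The median standard error of a difference was 0.27 and the median width of a 95% interval to either side was 0.62. For 525 probes (59.5%) the interval lay within 2-fold in both directions, and for the other 358 it reached past 2-fold in at least 1 direction.

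**Figure D4:**
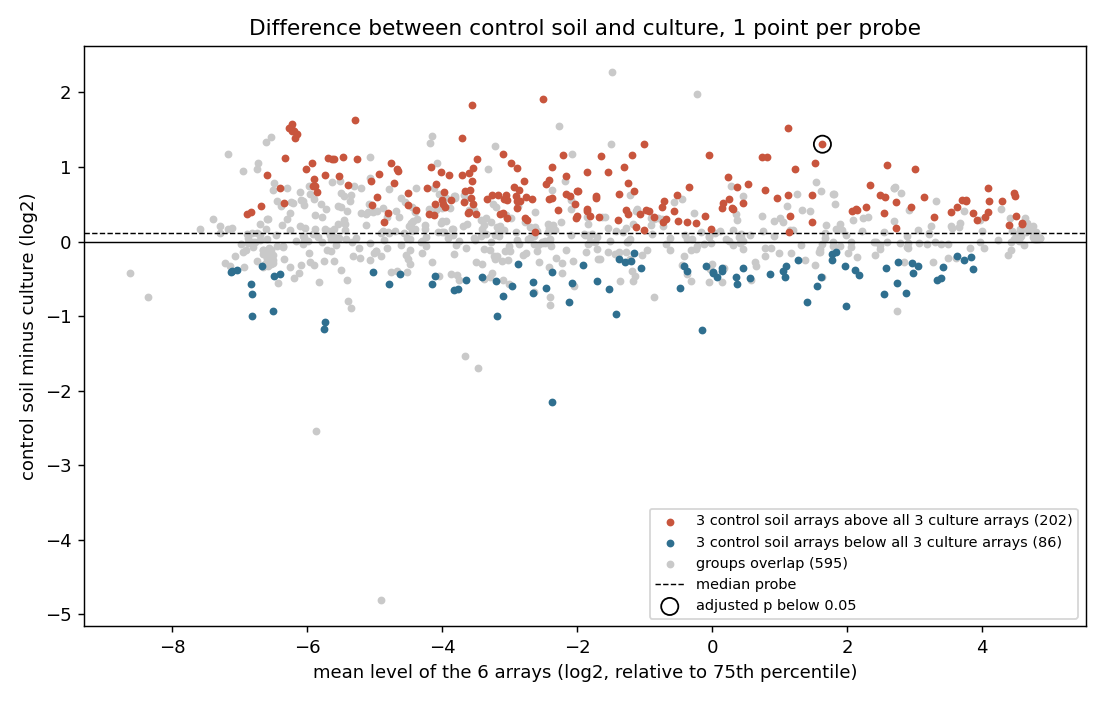
Each point is 1 of the 883 tested probes, placed by its mean log2 level over the 6 arrays and by its log2 difference, control soil minus culture. The middle of the cloud lies at 0.12 rather than 0, and 50 probes lie above a 2-fold difference while 10 lie below it.

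Probes of middle signal separated the groups more often than dim ones. With the probes sorted by mean level into 4 bins of 220 or 221, 18.6% of the dimmest bin had control soil and culture values that did not overlap, then 36.2%, 40.9% and 34.8% toward the brightest. The dimmest bin also had the widest spread, with a median SD of 0.384 in control soil and 0.407 in culture. In the brightest bin the medians were 0.146 in control soil and 0.232 in culture. Over all probes the median SD was 0.199 in control soil and 0.287 in culture, and the SD was larger in culture for 543 probes and in control soil for 340. Spread above 1 was nevertheless seen for 33 probes in control soil and 12 in culture.

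The identifiers fall into 4 forms, read after the files were seen, and the files do not say what the forms stand for. Of 321 probes named by a plate position only, 275 were tested, and their median difference was 0.26. Among them 101 (36.7%) had more signal in soil without overlap and 21 (7.64%) had less, beside 22.9% and 9.74% of all tested probes. Probes with Met in the name (290 tested) had a median of 0.07, with 51 higher (17.6%) and 44 lower (15.2%) without overlap. Those with Pest (165 tested) had -0.01, with 22 (13.3%) and 13 (7.88%). Contigs (153 tested), which are sequences assembled from overlapping reads, had 0.13, with 28 (18.3%) and 8 (5.23%). The forms also differed in signal and spread. Median control soil level was -1.85 for plate positions, -2.32 for Met, -2.92 for contigs and -4.63 for Pest. In the same order the median SD in control soil was 0.165, 0.182, 0.192 and 0.355. All these shares are under the main scaling, and whether they follow signal level or scaling was not tested. The probe called and 2 of the other 3 leading probes belong to the form with a plate position only, which holds 275 of the 883 tested probes. These few probes were picked by p, so their count is no result about the form.

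Whole profiles were set side by side in pairs. The median absolute difference was taken after removal of a pair's median offset. It was 0.158 to 0.287 for pairs within control soil, 0.281 to 0.366 within culture, and 0.338 to 0.459 across the groups. With offsets kept, between 64 and 153 probes differed by over 2-fold in a cross-group pair, against 48 to 69 within control soil and 25 to 108 within culture. The first principal component (32.9% of the variance) had scores of 9.80, 6.87 and 7.01 for control soil and -13.4, -5.08 and -5.15 for culture. It separated the groups, and culture replicate 1 lay farthest out.

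The second component (26.6%) cut across them. Control soil replicate 1 at 8.72 and culture replicate 3 at 11.7 lay at one end. Control soil replicates 2 and 3 at -7.85 and -6.48 and culture replicate 1 at -5.17 lay at the other, with culture replicate 2 between at -0.91. Control soil replicate 1 and culture replicate 3 are the arrays described above as standing apart. Over the 595 probes detected on all 6 arrays, the first component held 42.7% of the variance and again separated the groups. The second (19.3%) did not set control soil replicate 1 apart there. Its scores were 3.48, -5.61 and -1.85 for control soil and -4.36, 3.13 and 5.20 for culture. With control soil replicate 1 left out, 394 probes (44.6%) did not overlap and none was called by limma, where 139 had an unadjusted p under 0.05. With culture replicate 3 left out, 426 probes (48.2%) did not overlap, 241 higher in soil and 185 lower, and none was called, where 145 had an unadjusted p under 0.05. Fewer arrays overlap less often by construction, so these counts are not larger effects.

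**Figure D5:**
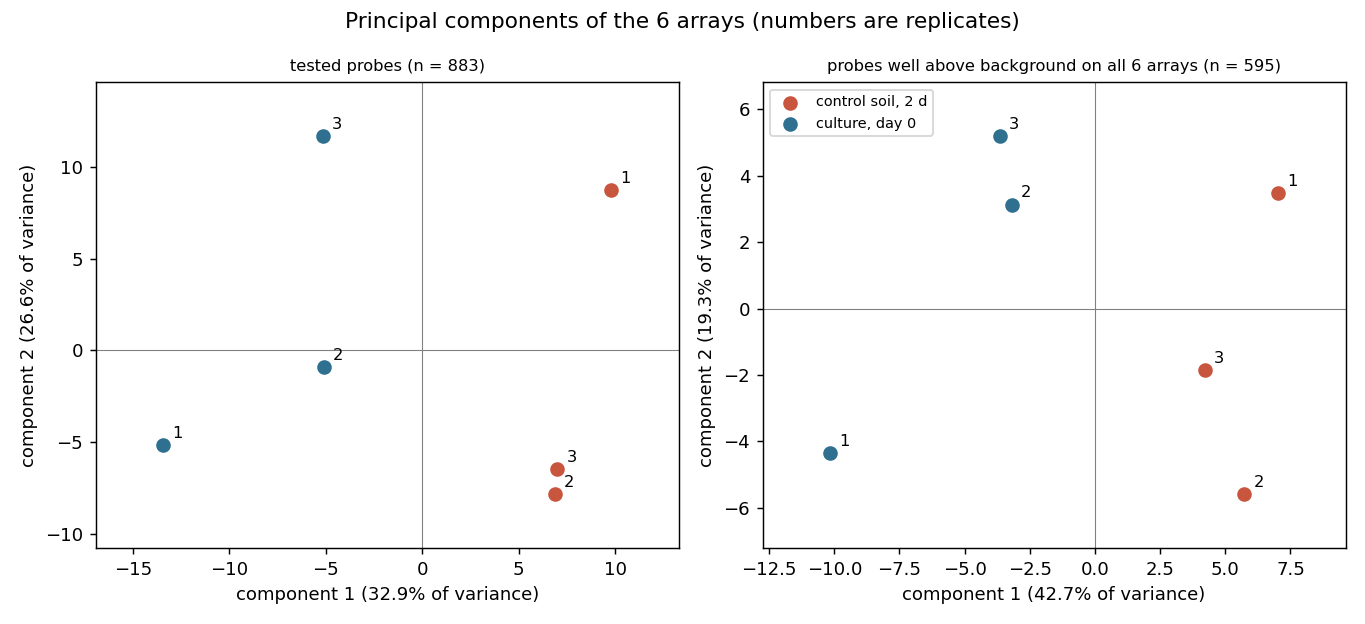
Scores of the 3 control soil and 3 culture arrays on the first 2 principal components of the log2 levels, over the 883 tested probes (left) and over the 595 probes detected on all 6 arrays (right), with replicate numbers beside the points. Component 1 separates the groups in both panels, and on the left component 2 sets control soil replicate 1 (8.72) and culture replicate 3 (11.7) apart from the others. On the right culture replicate 2 (3.13) lies beside control soil replicate 1 (3.48) on component 2.

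Contig19 had the largest difference toward control soil among probes detected on all 6 arrays without overlap. Its levels were -1.73, -0.07 and -2.85 in control soil and -3.46, -3.06 and -3.87 in culture. The groups did not overlap, but the soil replicates spanned more than the gap to culture. The difference of 1.91 (standard error 0.67) did not pass (limma, adjusted p = 0.196). Contig19 had 1.78, 3.61 and 2.26 in acetone soil, and in experiment 2 it averaged 0.05 at 2 days, -0.74 at 4 days and 0.65 at 8 days, so every soil sample of the series lay above culture.

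Ealb_Met_P10_D6_SP6_2091204 had the largest difference in the other direction among probes detected on all 6 arrays without overlap. Its levels were -3.37, -3.70 and -3.28 in control soil and -2.09, -0.99 and -0.81 in culture, and here the soil replicates were the tighter set. The difference was -2.16 with a standard error of 0.83 (limma, adjusted p = 0.217). In experiment 2 the probe averaged -0.39, -0.61 and 0.18 at 2, 4 and 8 days of control soil, and 8 of those 11 samples lay above all culture arrays.

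P2_B7_T7_1328934 had the largest SD within control soil, with -9.93, -2.31 and -9.71, and was detected on replicate 2 alone. It had -10.11, -2.96 and -9.67 in acetone soil, and -3.34, -1.30 and -2.90 in culture, where all 3 arrays detected it. The difference of -4.81 has a standard error of 2.26 and did not pass (limma, adjusted p = 0.298). In experiment 1, 1 soil array of each kind was near the culture level and the others were near background. In experiment 2 the probe lay between -10.74 and -8.54 at 2 days, -4.28 and -1.99 at 4 days, and -10.42 and -6.30 at 8 days, and all 4 arrays at 4 days detected it and none at 2 or 8 days did.

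Ealb_Pest_P3_H7_T7_2175129 had the largest SD within culture, with -9.11, -0.06 and 1.29, and was not detected on replicate 1. In control soil it had 0.18, -2.63 and 1.38, and the groups overlapped (difference 2.27, standard error 2.26, limma, adjusted p = 0.627). P3_5D_T7_1329685, named after its values were seen, was low in the same samples. It had 1.87, -1.63 and 2.04 in control soil and -6.59, 0.65 and 2.29 in culture. Because P3_5D_T7_1329685 was picked with these values in view, it is no separate evidence for the low value on culture replicate 1. Whether the pair read separate transcripts was not tested.

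The brightest probes were at the limit of the scanner. Ealb_Pest_P10_E3_SP6_2091100 had 4.98, 4.72 and 4.93 in control soil and 4.77, 4.28 and 5.45 in culture, and Contig89 had 4.99, 4.70 and 4.95 in control soil and 4.74, 4.31 and 5.44 in culture. Both were saturated on all or nearly all spots of each of these arrays, so their order follows the 75th percentile of the array and no fold is given. Saturated probes numbered 31, 44 and 33 on the control soil arrays and 37, 52 and 19 on the culture arrays.

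Without the filter on dim probes, limma called 38 of 1035 probes, 9 higher in soil and 29 lower. Of the 29, 27 were detected on no control soil array, and 23 were detected on culture replicate 2 alone of the 6 arrays. Their median level was -9.66, -9.97 and -9.41 on the control soil arrays and -7.54, -7.37 and -6.98 on the culture arrays. P3_C6_T7_1329691, named after its values were seen, had -9.93, -10.23 and -9.44 in control soil and -7.08, -7.08 and -7.00 in culture. On culture replicate 3 these values lie at the raised dim end of that array, near the -6.95 of the probes detected nowhere, and the part of that end in the calls was not tested. Of the 9 higher in soil, 7 were detected on all 6 arrays.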

How the data were processed

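Spot intensities came from the deposited scanner files, made with Agilent Feature Extraction 10.5.1.1, per the file headers of the 6 arrays and the submitters' processing notes. The processed intensity is background-subtracted within each array. A second deposited table holds the authors' log2 values, which correlated with the scanner values at 0.980 to 0.999 on the arrays of experiment 1. The labels and headers used here do not say how they were normalized.

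Each array had 15744 spots, 536 of them controls. Control spots and outlier spots (3.10% to 6.37% on the 6 arrays) were left out, saturated spots were kept, log2 signals were averaged per probe, and the 75th percentile of worm spots was subtracted. limma 3.58.1 in R 4.3.3 (lmFit, eBayes, two-sided) was fitted to the 9 arrays of experiment 1, with Benjamini-Hochberg adjustment over 883 probes and a threshold of 0.05. The number of arrays limits precision, and p-values cover the spread between these samples.

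The members, the rule for named probes and the alternatives were chosen with earlier results of these data known. The rule took the 2 higher and 2 lower probes with the smallest p, those with the largest SD in each group, the 2 brightest, the 3 most like the leading probe, and the largest difference in each direction without overlap among probes detected on all 6 arrays. For detection on all arrays of one group and none of the other it found no probe. Alternatives were quantile normalization, median centring, normexp background correction (offset 50), the authors' values, no or a stricter filter on dim probes, a fit of 6 arrays, a joint fit of all groups, a replicate block, scan day as a random block, spot medians and leaving out each array. normexp used median spot signals, since the files hold no mean signals.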

Additional observations from a re-analysis of the deposited data

How the results depend on the processing

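The count of probes called for control soil against culture was 1. It was 1 with normexp correction and 0 with quantile normalization, median centring, the authors' log2 values, the median of spots, and the joint fit of all groups, with 184, 161, 159, 157 and 54 probes at an unadjusted limma p under 0.05. It was 0 to 0 with each array left out in turn (97 to 147 unadjusted). It was 3 for probes detected on all 6 arrays, 8 in a fit of the 6 arrays only, 38 without the filter, and 68 (58 higher, 10 lower) with scan day as a random block. Chosen after seeing the data, slide as a random block gave 17, and leaving out control soil replicate 1 and culture replicate 3 gave 0 (126 unadjusted). The estimated correlation within scan days was -0.21 and within slides -0.25. No such block held both control soil and culture, so a negative value by itself lowers the standard error of the difference. For P5_D7_T7_1329838 it was 0.181 in the main fit, 0.146 with scan day and 0.163 with slide. The 68 and 17 calls are therefore not stronger evidence. The cause of the other changes was not tested, except that the fit without the filter adds dim probes. With the replicate number as a block the count was 0 (133 unadjusted, smallest adjusted p 0.197). In their deviations from the group means, same-numbered arrays correlated at -0.17, -0.18 and -0.17, and differently numbered ones at -0.10 to 0.26. Deviations within a group of 3 arrays depend on one another, so these values cannot decide whether the numbers pair the samples. P5_D7_T7_1329838, P4_C2_SP6_1371456, P3_A9_SP6_1371430 and Ealb_Pest_P1_A4_SP6_2090839 kept their direction under every alternative in which they were tested. Signal over background limits the dim probes, most of all on culture replicate 3.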
